A study of Mus musculus with 8 samples.

Results

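Replication-dependent histone genes encode the proteins that package newly copied DNA. The genes were taken by name: each gene whose symbol starts with Hist1h, Hist2h, Hist3h or Hist4h and whose level was above 0 in at least 1 library. Of the 52550 genes in the expression tables, 70 had such a symbol and 69 were above 0, with Hist1h1t at 0 throughout. The 69 genes form 5 classes, with 5 genes for H1, 20 for H2a, 19 for H2b, 12 for H3 and 13 for H4. They lie on chromosomes 13 (Hist1), 3 (Hist2), 11 (Hist3) and 6 (Hist4) of the mouse genome build GRCm38. The annotation lists Hist1h2aj, Hist1h2al and Hist3h2bb-ps as pseudogenes and the other 66 as protein-coding.

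DNA in a nucleosome is wound around histones H2A, H2B, H3 and H4, and the linker histone H1 binds where the DNA enters and leaves. Most of these genes are transcribed in S phase, and their messages usually end in a stem-loop, bound by the protein SLBP, in place of a poly(A) tail. B cell precursors of the bone marrow divide in bursts, and dividing cells need new histones for each copy of their DNA.

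Cells of the pro-B stage (gated as B220+CD43+IgM-) and of the earlier pre-pro-B stage were flow-sorted out of bone marrow of C57BL/6J mice that were either wild type (WT) or knockout for lactoferrin (Lf-/-), as age-matched littermates, with no further treatment. RNA sequencing gave levels in FPKM, fragment counts scaled to the length of the transcript and the total of the library. There were 4 pre-pro-B libraries, 2 per genotype, and 3 pro-B libraries, 2 of Lf-/- and 1 of WT cells, whose replicate 2 was not analysed here. The study's methods give 3 mice per group, its legends 2 repeats and its labels 2 libraries, so the p-values measure only the spread between these samples, which may be technical. Where values of all 7 libraries are given, replicate 1 comes before replicate 2 in each group.

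The knockout was visible in Ltf, the lactoferrin gene, which stood at 2143 and 2731 FPKM in WT against 88.2 and 149 in Lf-/- pre-pro-B cells, and 2650 in WT against 168 and 96.0 in Lf-/- pro-B cells. All 4 Lf-/- libraries lay below all 3 WT libraries, so the genotype labels held. The number of sequenced fragments is not given in the files. Steps in the FPKM of genes with 1 transcript put it between 10800000 and 15300000 in 6 libraries and gave no estimate for Lf-/- pre-pro-B replicate 2. That library stood apart from the rest: 12172 genes were above 0 in it, against 19477 to 20250 in the other 6 libraries. The histone results are therefore given with and without that library.

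All libraries held abundant RNA of cells outside the B lineage. The 13 neutrophil markers, all above 0 in every library and led by S100a8, took 36.7% and 35.9% of summed FPKM in WT against 36.1% and 24.4% in Lf-/- pre-pro-B cells, and 50.1% in WT against 34.1% and 37.7% in Lf-/- pro-B cells. The 14 early B lineage markers, led by Cd79a, summed to 621 and 596 FPKM in WT against 3575 and 2469 in Lf-/- pre-pro-B cells, and 231 in WT against 2948 and 1633 in Lf-/- pro-B cells. Each of these B lineage genes was above 0 in each library, except that Rag1 was at 0 in the WT pro-B library and Rag2 in Lf-/- pre-pro-B replicate 2. In such bulk samples, fewer cells of a type and less RNA per cell cannot be told apart.

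Most of the 69 genes shared a 3' end feature that their choice by name did not use. A search of the annotated transcripts for the histone stem-loop, a motif of 16 letters, found it after the coding sequence of 45 of the 69 genes. It was found in 43 of the 50 with at least 60 annotated bases past the coding sequence. The 50 include the pseudogenes Hist1h2aj, Hist1h2al and Hist3h2bb-ps, which have no annotated coding sequence and were counted by their whole length. Among all 22395 coding genes searched the same way, on the transcript's own strand, 79 (0.353%) held the stem-loop. By class it was found in 3 of 5 H1, 11 of 20 H2a, 10 of 19 H2b, 9 of 12 H3 and 12 of 13 H4 genes. A stem opening with GGCTC and closing with GAGCC was present in all 33 H1, H2a, H2b and H3 genes with a loop, whereas the H4 genes used other stems. The sites of an abundant gene of each class are shown to make that contrast visible, with the 16 letters of the loop in capitals and 5 flanking bases on each side.
Hist1h1c (H1): caaaaGGCTCTTTTCAGAGCCaccac
Hist1h2ao (H2a): aaaaaGGCTCTTTTCAGAGCCatcca
Hist1h2bj (H2b): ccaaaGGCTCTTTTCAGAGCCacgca
Hist1h3a (H3): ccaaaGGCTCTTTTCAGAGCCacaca
Hist1h4d (H4): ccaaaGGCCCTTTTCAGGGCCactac
On GRCm38 these sites lie at chr13:23739507-23739532, chr13:21810893-21810918, chr13:22043633-22043658, chr13:23761885-23761910 (minus strand) and chr13:23581945-23581970, in the order printed. The 16 letters of Hist1h4d were found in 7 H4 genes, and the other 5 H4 genes with a loop had 3 further versions of them.

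H2a stood far above the other classes in RNA level and held nearly all of the RNA of the 69 genes. The 69 genes summed to 11612 and 17751 FPKM in WT against 19396 and 4008 in Lf-/- pre-pro-B cells, and 24286 in WT against 12711 and 14902 in Lf-/- pro-B cells. The 20 H2a genes made up between 86.5% and 97.5% of these sums. Per gene, the median of the mean levels over the 7 libraries was 104 FPKM in H2a, 9.04 in H3, 5.81 in H4, 4.85 in H2b and 2.57 in H1. Hist1h2aa and Hist1h2ba, the testis variants of H2A and H2B, had the lowest means of all, at 0.375 and 0.471 FPKM; they were chosen after their values were seen.

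H2a, a core histone class, was carried by a pair of genes. Hist1h2ap was at 4396 and 6714 FPKM in WT against 7310 and 1447 in Lf-/- pre-pro-B cells, and 9317 in WT against 4713 and 5784 in Lf-/- pro-B cells. Hist1h2ao was at 4198 and 6397 FPKM in WT against 6944 and 1351 in Lf-/- pre-pro-B cells, and 8963 in WT against 4532 and 5528 in Lf-/- pro-B cells. Hist1h2ag, next in level, was at 935 and 1372, then 1582 and 248, then 2078, then 1080 and 1196 FPKM in the same order. All 3 genes were highest in the WT pro-B library and lowest in Lf-/- pre-pro-B replicate 2, with overlap of the pre-pro-B genotypes. Hist1h2ap and Hist1h2ao together held 76.3% to 80.8% of the H2a sum, and their ratio stayed between 1.04 and 1.07. Their coding sequences are identical, so the division of reads between them is uncertain.

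**Figure D1:**
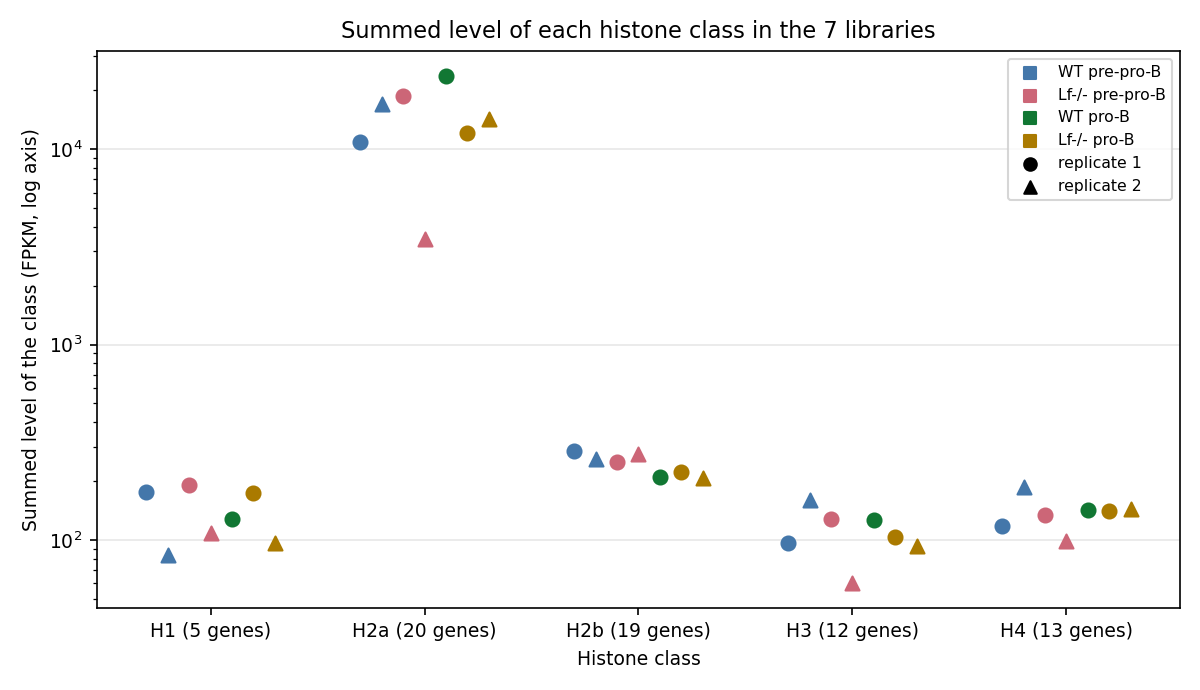
Summed level of each histone class (FPKM, log axis) in the 7 libraries, coloured by group, with circles for replicate 1 and triangles for replicate 2. H2a reaches from 3465 to 23682 FPKM, while H1, H2b, H3 and H4 all stay between 60.5 and 284 FPKM.

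The sum over a class depends less than single genes on how reads were divided among near-identical members, though FPKM also depends on their lengths. H2a summed to 10938 and 17063 FPKM in WT against 18693 and 3465 in Lf-/- pre-pro-B cells, and 23682 in WT against 12069 and 14361 in Lf-/- pro-B cells. H2b, its partner in the nucleosome, summed to 284 and 259 FPKM in WT against 249 and 275 in Lf-/- pre-pro-B cells, and 209 in WT against 224 and 207 in Lf-/- pro-B cells. H2b stayed between 207 and 284 FPKM in all 7 libraries, including the one that stood apart, while H2a spread widely. The ratio of the H2a sum to the H2b sum went from 12.6 in Lf-/- pre-pro-B replicate 2 to 114 in the WT pro-B library, with 38.6 to 75.0 in the other 5.

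H3 and H4, which pair with each other in the nucleosome core, had sums of similar size. H3 summed to 96.6 and 160 FPKM in WT against 128 and 60.5 in Lf-/- pre-pro-B cells, and 126 in WT against 103 and 92.9 in Lf-/- pro-B cells. H4 summed to 117 and 186 FPKM in WT against 134 and 99.2 in Lf-/- pre-pro-B cells, and 142 in WT against 141 and 145 in Lf-/- pro-B cells. Both classes were highest in WT pre-pro-B replicate 2 and lowest in Lf-/- pre-pro-B replicate 2. The most abundant H3 gene was Hist1h3i, at 10.9 and 30.0, then 17.8 and 17.9, then 18.8, then 12.0 and 20.2 FPKM in the same order of groups. For H4 it was Hist1h4d, at 37.5 and 44.7, then 34.2 and 42.2, then 43.2, then 30.1 and 43.4 FPKM, a gene whose level hardly varied and whose groups overlapped.

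H1, the linker histone, was mostly Hist1h1c, which made up 68.9% to 90.0% of its class. Hist1h1c was at 158 and 57.5 FPKM in WT against 172 and 80.5 in Lf-/- pre-pro-B cells, and 106 in WT against 156 and 78.9 in Lf-/- pro-B cells. In each group with 2 libraries replicate 1 was higher than replicate 2, so the spread lay within the groups. Hist1h1b, next in level, was at 14.0 and 19.4, then 16.5 and 21.4, then 12.1, then 11.2 and 13.6 FPKM, with the pro-B libraries all below the pre-pro-B libraries.

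**Figure D2:**
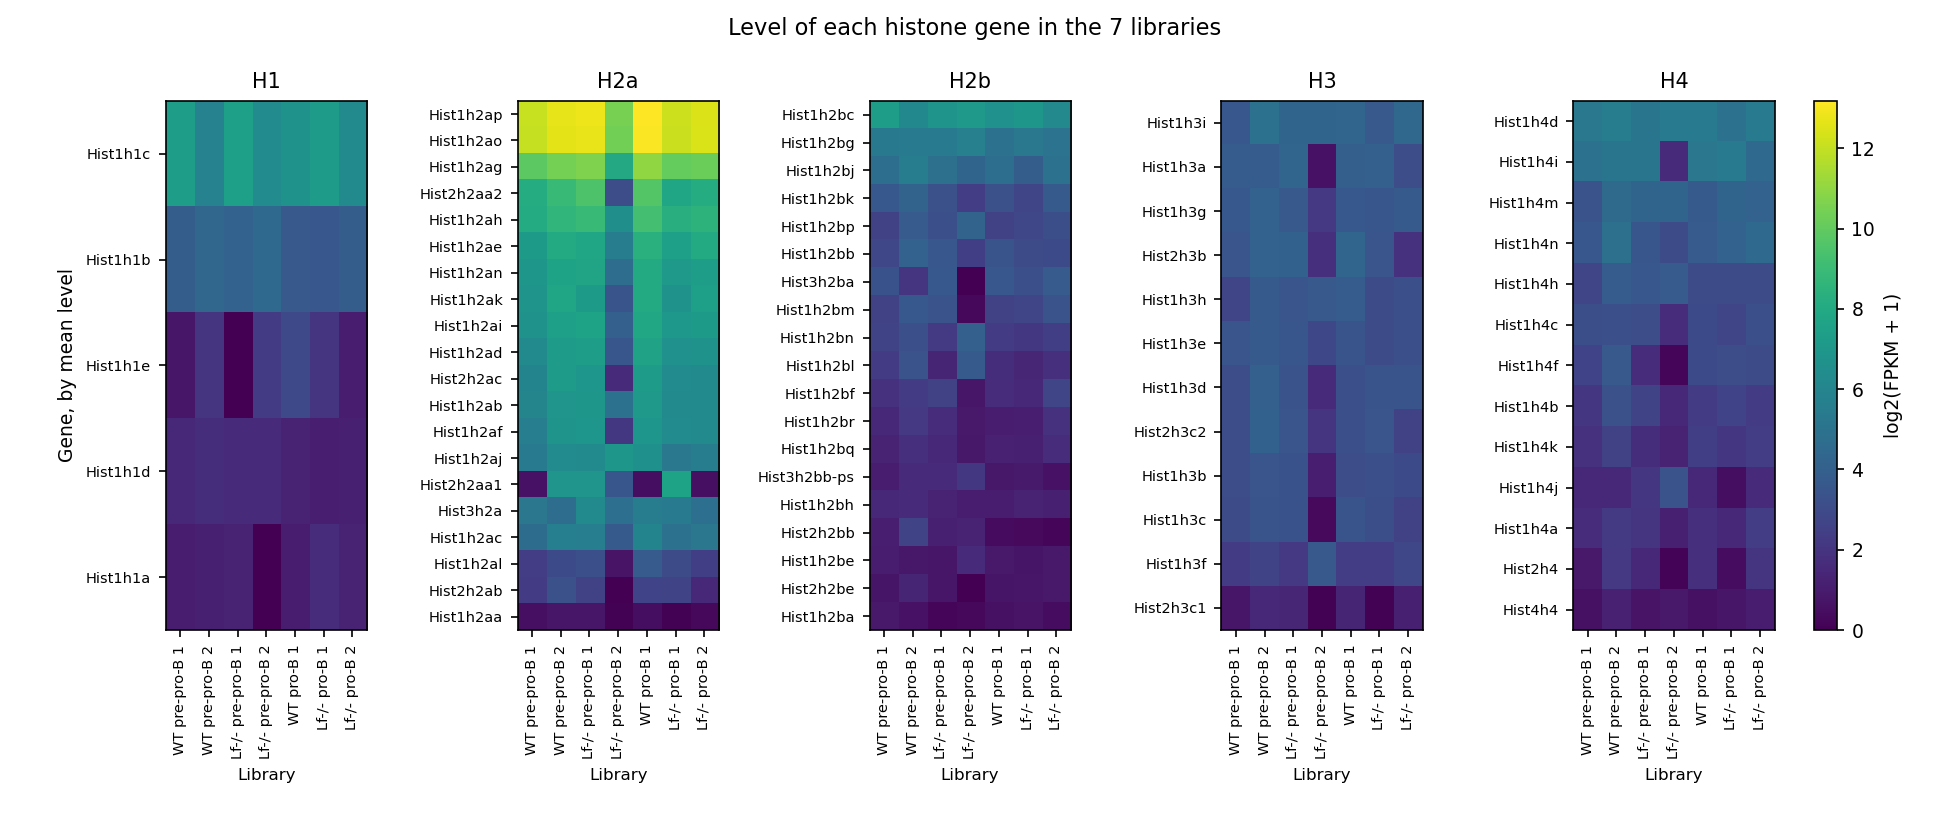
Level of each of the 69 genes as log2(FPKM + 1) in the 7 libraries, by class and ordered by mean level. Hist1h2ap and Hist1h2ao, at up to 9317 and 8963 FPKM, are brightest, and the column of Lf-/- pre-pro-B replicate 2 is darkest for most H2a, H3 and H4 genes.

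The pattern within a class was also counted gene by gene, though genes that share sequence are not separate readings. Of the 20 H2a genes, 14 had their highest level in the WT pro-B library and 17 their lowest in Lf-/- pre-pro-B replicate 2. Lf-/- pre-pro-B replicate 2 was also lowest for 8 of 12 H3 and 8 of 13 H4 genes, but among the 19 H2b genes it was lowest for 9 and highest for 6. Hist1h2bc, the most abundant H2b gene, was at 160 and 69.3 FPKM in WT against 112 and 139 in Lf-/- pre-pro-B cells, and 99.3 in WT against 126 and 74.0 in Lf-/- pro-B cells. Its level in Lf-/- pre-pro-B replicate 2 lay within the range of the other libraries, unlike that of most H2a genes.

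Many H2a and H2b genes stand head to head in the genome, and their levels were unequal. There were 14 pairs of an H2a and an H2b gene on opposite strands whose starts lie within 500 bases. On the mean, H2a was higher in 12 of the 14 pairs, and it was higher in all 7 libraries in 10. The median ratio of H2a to H2b was 27.9. The ratio was 3376 for Hist1h2ao and Hist1h2bq, whose starts are 268 bases apart, and 2999 for Hist1h2ap and Hist1h2br. Hist1h2bq and Hist1h2br share most of their sequence, with 5.43% and 14.2% of sequence windows found in no other gene. Their longest annotated transcripts have 2015 and 2197 bases, against 480 and 482 for Hist1h2ao and Hist1h2ap, and FPKM depends on length. The part of shared sequence and length in these ratios was not tested. The 14 pairs include the pseudogenes Hist1h2aj and Hist3h2bb-ps. Hist1h2ac and Hist1h2bc, 251 bases apart, were the pair with H2b higher in all 7 libraries, at a ratio of 0.339. Hist1h2bq and Hist1h2ac were chosen after their values were seen.

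**Figure D3:**
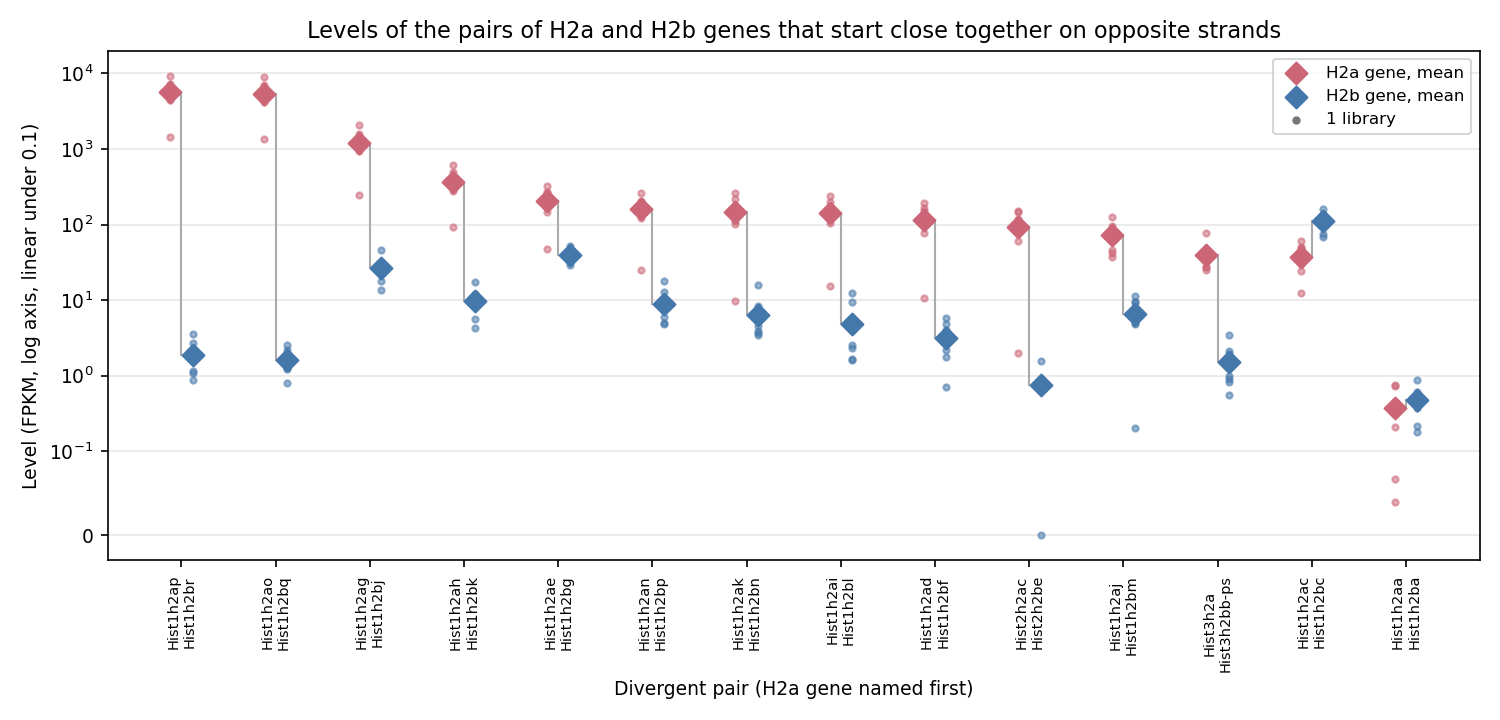
Levels (FPKM, log axis, linear under 0.1) of the 14 head-to-head pairs, with a diamond for the mean of each gene and a small point for each of the 7 libraries. H2a genes lie above their H2b partners in 12 pairs, and Hist1h2ac with Hist1h2bc is the clear exception, at a ratio of 0.339.

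Promoters of many of these genes held the same short motifs. Both strands were searched in the window from 250 bases before to 50 bases after each start, for the 61 of the 69 genes with a RefSeq entry. The letters CCAAT, bound in many promoters by the factor NF-Y, were present in all 5 H1, 18 H2a, 16 H2b and 10 H3 windows and in 3 of 12 H4 windows, against 37.9% of 27025 promoters of all genes. The letters TATAAA, of the TATA box, were in 4 H1, 11 H2a, 8 H2b, 4 H3 and 8 H4 windows, against 14.2% of all promoters. The octamer ATTTGCAT, known from H2B promoters as a site of the factor Oct-1, was in 7 H2a and 6 H2b windows and in no H1, H3 or H4 window, against 1.75% of all promoters. The windows of head-to-head pairs overlap, so an H2a and an H2b window can hold the same match. A match describes the letters and is not a measured binding site. The promoters of the most abundant H4 gene, of Hist1h2ao and of the pair with the reversed ratio are shown from RefSeq, build GRCm38.p6, with matches to the 3 motifs on either strand in capitals.
Hist1h2ao, chr13:21810117-21810416, plus strand: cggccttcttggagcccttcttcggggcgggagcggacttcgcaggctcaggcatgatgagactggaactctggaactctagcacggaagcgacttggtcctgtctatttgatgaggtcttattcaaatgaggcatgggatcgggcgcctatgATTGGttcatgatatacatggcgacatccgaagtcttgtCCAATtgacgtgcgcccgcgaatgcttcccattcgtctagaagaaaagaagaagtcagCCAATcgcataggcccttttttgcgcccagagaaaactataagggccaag
Hist1h2ac with Hist1h2bc, chr13:23683910-23684209, minus strand: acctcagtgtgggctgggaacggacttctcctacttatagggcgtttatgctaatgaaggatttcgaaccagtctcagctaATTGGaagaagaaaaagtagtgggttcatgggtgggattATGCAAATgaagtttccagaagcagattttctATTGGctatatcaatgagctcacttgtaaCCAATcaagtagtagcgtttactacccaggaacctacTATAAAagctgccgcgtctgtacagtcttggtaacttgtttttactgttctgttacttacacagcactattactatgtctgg
Hist1h4d, chr13:23581318-23581617, plus strand: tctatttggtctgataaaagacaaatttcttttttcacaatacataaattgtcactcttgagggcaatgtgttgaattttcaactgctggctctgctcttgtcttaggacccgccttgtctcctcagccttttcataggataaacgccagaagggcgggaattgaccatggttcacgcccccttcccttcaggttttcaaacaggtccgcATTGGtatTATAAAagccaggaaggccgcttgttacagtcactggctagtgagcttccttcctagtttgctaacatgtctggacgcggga
The Hist1h2ao window held CCAAT or its reverse at 3 places and neither of the other motifs, the Hist1h2ac window held all 3 motifs, and the Hist1h4d window held the TATAAA letters and a single CCAAT match.

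Shared sequence limits what can be said of single genes. Counting windows of 100 bases along the annotated transcripts, a median of 99.2% were found in no other gene for H1, 81.0% for H4, 65.3% for H2b, 50.3% for H3 and 30.1% for H2a. The share was 7.83% for Hist1h2ap and 7.35% for Hist1h2ao, and 0% for Hist2h2aa1, Hist2h2aa2, Hist2h2bb, Hist2h3b and Hist2h3c1, whereas Hist1h4d was unique in 100% of its windows. Windows were also shared with genes outside the 69, among them H2afx, at a mean of 733 FPKM, so reads of these genes may have been counted for each other. The strandedness of the libraries is not stated, so reads from antisense transcripts cannot be told apart either.

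In pre-pro-B cells, the question was whether histone RNA differed between Lf-/- and WT mice at the earlier stage. The 4 libraries did not divide by genotype: Lf-/- replicate 1 had the highest summed level of the 69 genes, at 19396 FPKM, Lf-/- replicate 2 the lowest, at 4008 FPKM, and both WT libraries lay between them. On the log2 scale the Lf-/- minus WT difference in the class sum was -0.76 for H2a, -0.50 for H3, -0.36 for H4, -0.05 for H2b and 0.25 for H1, and the genotypes overlapped in every class. The spread between replicates (SD of the log2 sums within groups) was 1.03, 0.54, 0.32, 0.09 and 0.66 in the same order, so no class but H4 differed by more than that spread, and H4 only just. Of the 64 genes that reached 1 FPKM in 2 or more of the 4 libraries, 49 were lower and 15 higher in Lf-/- on the mean of log2(FPKM + 1). Over all 9720 genes tested, 4662 were lower and 5058 higher. Without Lf-/- replicate 2, 24 of 63 histone genes were lower and 39 higher. The H2a class sum then differed by 0.45 the other way, above the replicate spread of 0.34 without that library. That difference sets 1 Lf-/- library, at 18693 FPKM, against 10938 and 17063 FPKM in WT, so it cannot show a reversal.

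The genes with the largest pre-pro-B differences had 1 library in common. Hist2h2ac was at 61.5 and 149 FPKM in WT and 120 and 1.99 in Lf-/- libraries. Hist1h4f was at 5.24 and 11.8 FPKM in WT and 2.18 and 0.168 in Lf-/- libraries. For Hist2h2ac the low value was that of Lf-/- replicate 2 alone, with overlap of the genotypes otherwise, whereas for Hist1h4f both Lf-/- values were below both WT values. Hist1h4i was at 29.4 and 33.6 in WT and 33.5 and 2.10 FPKM in Lf-/- libraries, and Hist1h3a at 13.5 and 13.2 in WT and 19.0 and 0.567 in Lf-/- libraries. In both, Lf-/- replicate 1 was as high as WT or higher. In limma, none of the 64 histone genes passed an adjusted p of 0.05, as none of 9720 genes tested did (0%), and Hist1h4f alone had an unadjusted p under 0.05 (log2 difference -2.21, SE 0.69, adjusted p = 0.941), beside 284 of all genes (2.92%).

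The members' median log2 difference was -0.56 against 0.03 for all genes tested, or -0.60 relative to it. Relative to all genes, the class medians were -0.05 for H1, -0.89 for H2a, -0.46 for H2b, -0.90 for H3 and -0.66 for H4, all negative also under median-ratio scaling and quantile normalization, which moved the median of all genes to -0.10 and -0.08. Without Lf-/- replicate 2 they were 0.20, 0.59, 0.05, 0.10 and 0.09 in the same order, each above the median of all genes, which was then -0.10. Without Lf-/- replicate 1, where the lone library is assumed to vary like the WT group, 29 of 62 histone genes passed the adjusted test, 27 of them lower, beside 3338 of 9143 genes (36.5%), 1600 of them lower. The lower H2a class median thus rested on Lf-/- replicate 2, the library with fewest genes detected, whereas Hist1h4f was lower in both Lf-/- libraries. Hist1h4f had an estimated 22 and 54 fragments in WT and 9 in Lf-/- replicate 1. In pro-B cells it was not lower, at 6.77 FPKM in WT against 7.52 and 7.05 in Lf-/- libraries. In Lf-/- pre-pro-B replicate 2 the erythroid markers also took 15.2% of all summed FPKM and the azurophil granule markers 1.05%, whose part in the result was not tested.

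In pro-B cells, the question was the same at the later stage, with 1 WT library and no test. H2a genes were lower in Lf-/- as a group: the class sum was 23682 FPKM in WT against 12069 and 14361 in Lf-/- libraries, a log2 difference of -0.85 with no overlap. H3 was lower too, at 126 against 103 and 92.9 FPKM (log2 difference -0.36). Both differences were below the replicate spread of 1.03 for H2a and 0.54 for H3, and rest on 1 WT library. Without Lf-/- pre-pro-B replicate 2 the spread was 0.34 for H2a and 0.37 for H3, so only the H2a difference then exceeded it. The Lf-/- values of H1, H2b and H4 lay on both sides of the WT value, with log2 differences of 0.02, 0.05 and 0.01. Of 65 histone genes that reached 1 FPKM in 2 or more of the 7 libraries, 43 were lower and 22 higher in Lf-/-, and 62 lay below the median of all genes. Over all 10793 genes, 1398 were lower and 9391 higher. The other 4 of the 69 were too low to enter.

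A gene was called here when the Lf-/- values were both above or both below WT and their mean differed at least 2-fold on log2(FPKM + 1). By this rule 6 of 65 histone genes were called, beside 1462 of 10793 genes (13.5%). In the higher direction it was 1 of 65, beside 1341 of all genes (12.4%), and in the lower direction 5 of 65, beside 121 (1.12%). Hist2h3b, an H3 gene, was at 18.5 FPKM in WT and 10.1 and 2.72 in Lf-/- libraries (log2 difference -1.60). Hist1h1e, an H1 gene, was at 6.38 in WT and 3.03 and 0.980 FPKM in Lf-/- libraries (-1.39). Both Lf-/- values were lower than WT, though they differed from each other several-fold. The pseudogenes Hist1h2aj (-1.19) and Hist1h2al (-1.02) were also called lower, and were chosen after their values were seen.

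The remaining calls were Hist2h2aa1, higher (log2 difference 3.62), and Hist2h2aa2, lower (-1.68), which have identical coding sequences and no unique window. Hist2h2aa1 was at 0.571 and 116 FPKM in WT against 117 and 10.3 in Lf-/- pre-pro-B cells, and 0.411 in WT against 202 and 0.481 in Lf-/- pro-B cells. Hist2h2aa2 was at 283 and 493, then 730 and 7.71, then 800, then 215 and 287 FPKM in the same order of groups. Hist2h2aa1 jumped between near 0 and over 100 FPKM inside groups. The sum of the pair was 284 and 608 in WT against 847 and 18.1 in Lf-/- pre-pro-B cells, and 800 in WT against 418 and 287 FPKM in Lf-/- pro-B cells, of which Hist2h2aa1 held from 0.0514% to 57.3%. The opposite calls of this pair therefore cannot be told apart from how reads were divided between them, while their sum was lower in both Lf-/- pro-B libraries than in WT.

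Scaling mattered in pro-B cells, since the median of all genes was itself 0.48 higher in Lf-/-. Relative to it, the class medians were -0.46 for H1, -1.32 for H2a, -0.49 for H2b, -0.75 for H3 and -0.46 for H4. Unscaled, the medians of H1 (0.03) and H4 (0.02) were positive and that of H2b was 0.00, and with median-ratio scaling, which brought the median of all genes to 0.01, they turned to -0.57, -0.55 and -0.39. With that scaling 25 of 65 histone genes were called lower and none higher, 18 of the 25 in H2a, while calls over all genes split into 432 higher and 390 lower. Quantile normalization gave 18 histone genes lower and none higher, beside 463 higher and 370 lower. H2a was lower in 18 of its 19 genes under all 3 scalings. In the WT pro-B library, which alone sets these calls, the neutrophil markers had their highest share of FPKM (50.1%), though only 4 of the 13 were highest there, and the early B lineage markers their lowest sum (231 FPKM), and their part in the result was not tested.

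With both stages combined, the question was the effect of the lactoferrin knockout on histone RNA apart from stage. None of the 5 classes held a gene that passed the test, and the H2a sum of Lf-/- pre-pro-B replicate 1, at 18693 FPKM, was above both WT pre-pro-B libraries. The class sum differed by -0.80 (log2) for H2a, -0.44 for H3, -0.21 for H4, -0.01 for H2b and 0.16 for H1, all below the spread between replicates. Without Lf-/- pre-pro-B replicate 2 it was -0.20 for H2a and -0.16 for H3. Hist2h3b had a log2 difference of -1.17 (SE 0.60), or -0.67 without that library, and its levels in pre-pro-B were 10.2 and 16.8 FPKM in WT against 15.9 and 2.48 in Lf-/- libraries. Hist1h2bk, an H2b gene, had one of -0.68 (SE 0.42), or -0.35 without that library, from 11.5 and 17.5 FPKM in WT against 8.54 and 4.22 in Lf-/- pre-pro-B cells, and 8.52 in WT against 5.69 and 12.1 in Lf-/- pro-B cells. Its genotypes were apart in pre-pro-B and overlapped in pro-B cells. Cell type markers moved in the same fit. All 13 early B lineage markers that entered were higher in Lf-/- (median 1.96) and all 5 azurophil granule markers lower (median -1.19). The part of these markers in the histone result was not tested.

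In limma over all 7 libraries, with genotype and stage as terms, 0 of 65 histone genes passed an adjusted p of 0.05, beside 20 of 10793 genes (0.185%). At an unadjusted p under 0.05 it was 0 of 65 in limma, beside 774 of all genes (7.17%), and the lowest adjusted p of a histone gene was 0.689. Of the 65 genes, 51 were lower and 14 higher in Lf-/-, with a median of -0.49 against 0.21 for all genes, or -0.70 relative to it. Over all 10793 genes, 3582 were lower and 7211 higher. Class medians relative to all genes were -0.27 for H1, -1.05 for H2a, -0.37 for H2b, -0.78 for H3 and -0.48 for H4, negative under both other scalings too. Without Lf-/- pre-pro-B replicate 2 the relative median was -0.33 for all 65 and -0.40 for H2a, and without the WT pro-B library it was -0.55 and -0.88. Leaving out that pre-pro-B library also turned the unscaled medians of H1 and H2b positive, to 0.01 and 0.04. Without Lf-/- pre-pro-B replicate 2 the call count over all genes was 123, and without the WT pro-B library 0, with no histone gene in either. An exact permutation test of a class sum cannot give a p below 0.333 in the pre-pro-B libraries or 0.0556 over both stages, so class sums are given without p-values.

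**Figure D4:**
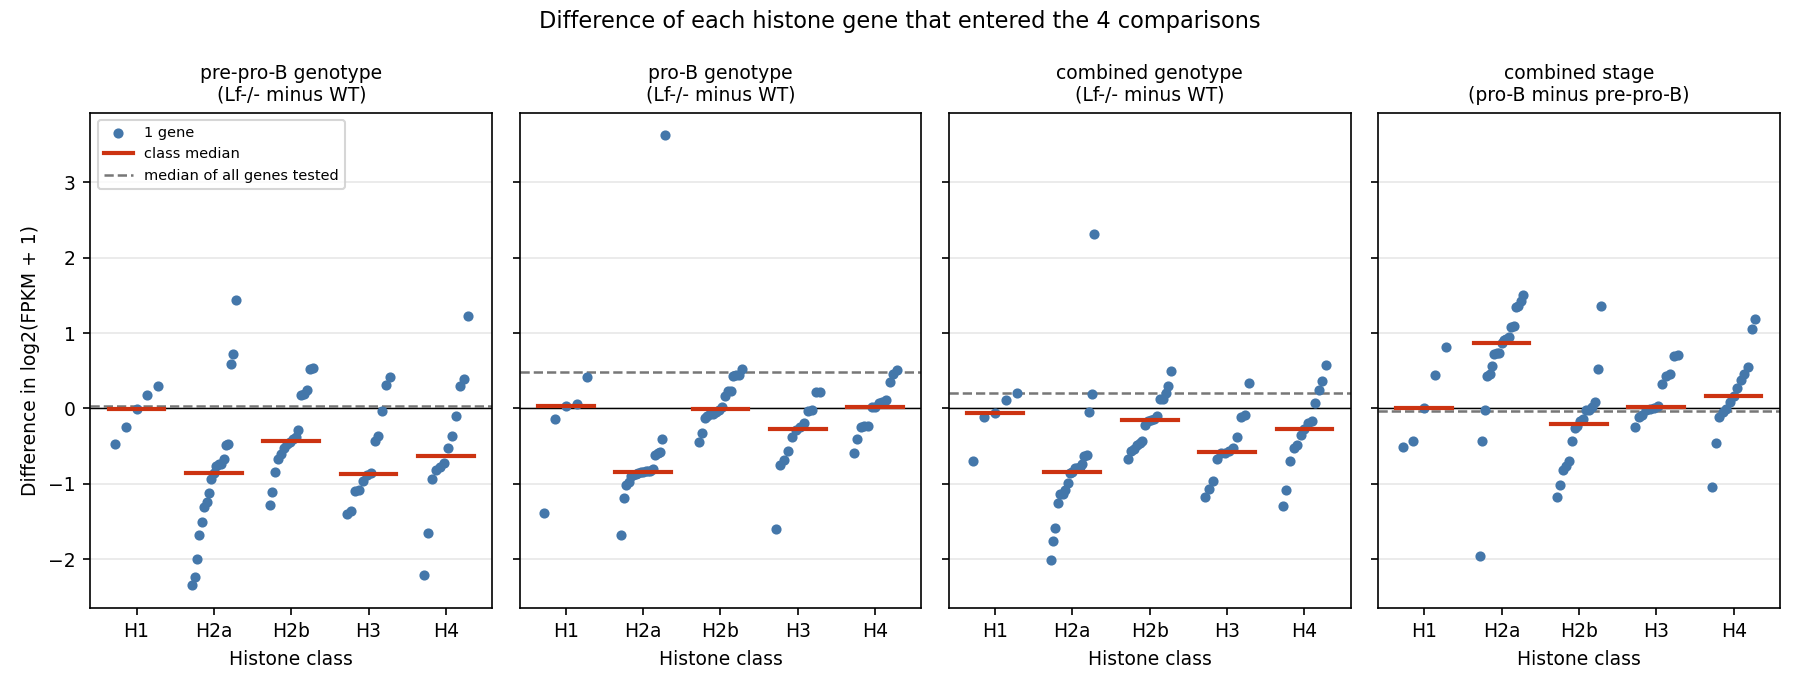
Difference in log2(FPKM + 1) of each histone gene that entered the 4 comparisons, with the class median in red and the median of all genes as a dashed line. H2a genes lie low in Lf-/- (median -0.84 in pro-B) and high in pro-B cells (median 0.86). The stage median is far smaller without Lf-/- pre-pro-B replicate 2, and the low H2a position in pre-pro-B genotype also rests on that library. The lone high point in pro-B genotype is Hist2h2aa1 at 3.62.

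**Figure D5:**
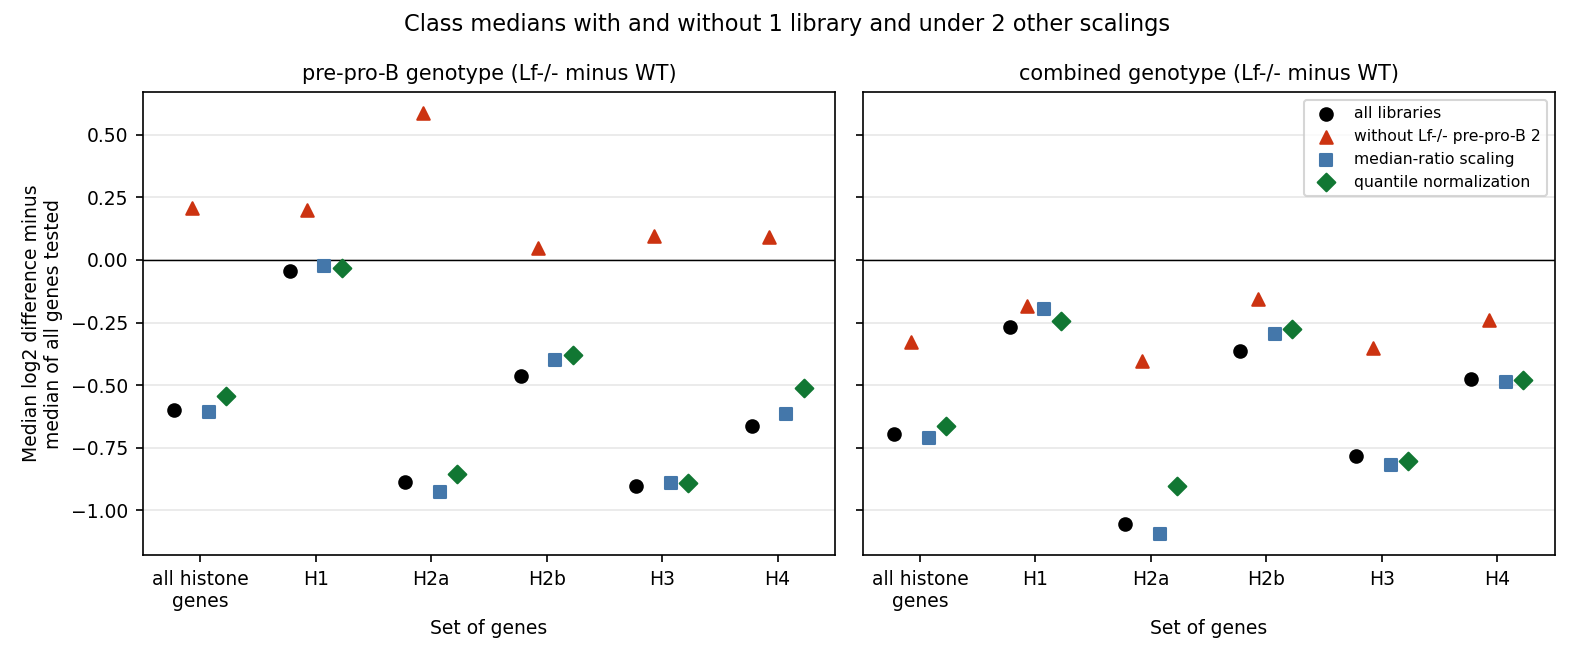
Median log2 difference (Lf-/- minus WT) of all histone genes and of each class minus the median of all genes tested, with all libraries, without Lf-/- pre-pro-B replicate 2 and under 2 other scalings. In pre-pro-B the H2a median goes from -0.89 to 0.59 without that library, and with both stages combined from -1.05 to -0.40.

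Between stages, the question was how histone RNA differed from pre-pro-B to pro-B cells apart from genotype. H2a was higher in pro-B cells in 16 of 19 genes, with a median log2 difference of 0.86 and a class sum difference of 0.74, below its replicate spread of 1.03. H2b went the other way, lower in 12 of 16 genes with a median of -0.20 and a class sum difference of -0.32, over a replicate spread of 0.09. That difference was -0.21 with median-ratio scaling and -0.10, about the spread, when rescaled without the neutrophil and azurophil granule markers. Hist3h2ba, the H2b gene with the largest stage difference, was higher in pro-B cells (1.36, SE 0.78), at 9.06 and 3.04, then 11.6 and 0, then 10.9, then 8.28 and 12.6 FPKM in the order of groups above. Its level of 0 was that of Lf-/- pre-pro-B replicate 2, and the stages overlapped. All 3 pro-B sums of H2b, from 207 to 224 FPKM, lay below all 4 pre-pro-B sums, from 249 to 284 FPKM. Hist1h2bc made up 26.8% to 56.2% of these sums, and the sums without it overlapped between the stages. The replicate spread of 0.09 also includes that gene and was wider without it. H3 and H4 had medians of 0.02 and 0.17, and H1 one of 0.01. The median of all genes was -0.03, and these directions were the same with median-ratio scaling and quantile normalization. Over all 10793 genes, 5673 were lower and 5120 higher in pro-B cells.

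Hist2h2bb, an H2b gene with the largest lower difference of its class, was at 1.13 and 5.45 FPKM in WT against 1.22 and 1.47 in Lf-/- pre-pro-B cells, and 0.296 in WT against 0.257 and 0.166 in Lf-/- pro-B cells. All pro-B values were below all pre-pro-B values, but with no unique window and an estimated 2, 1 and 1 fragments in the pro-B libraries. Hist1h1b likewise had a log2 difference of -0.52 (SE 0.29). In limma, 0 of 65 histone genes passed an adjusted p of 0.05, beside 1 of 10793 genes (0.00927%), and 2 of 65 had an unadjusted p under 0.05, beside 260 of all genes (2.41%). These were Hist2h2bb (log2 difference -1.18, SE 0.41) and the pseudogene Hist3h2bb-ps (-0.82, SE 0.34), the latter chosen after its values were seen. Without Lf-/- pre-pro-B replicate 2 the H2a median fell to 0.13, with 13 of 19 higher, and H2b was lower in 15 of 16 genes at a median of -0.38. The medians of H1, H3 and H4 then turned negative, to -0.23, -0.18 and -0.04. These values without that library are not relative to all genes, so a shift shared by all genes cannot be told apart from them.

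The genotype effect was compared between the stages by an interaction term, since calls in pro-B and none in pre-pro-B do not show a difference. In limma no gene of 10793 passed an adjusted p of 0.05 for the interaction, and 296 (2.74%) had an unadjusted p under 0.05. Among the 65 histone genes it was 0 and 2, the latter Hist1h4f and Hist1h2aj. The 4 comparisons share libraries, so their values are not independent of each other.

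Genes of the same pathway had mixed levels in the library where most H2a genes were lowest. SLBP, the protein that binds the stem-loop, is encoded by Slbp, which was at 19.8 and 19.7 FPKM in WT against 17.1 and 29.2 in Lf-/- pre-pro-B cells, and 17.7 in WT against 26.6 and 24.4 in Lf-/- pro-B cells. Its level was highest in Lf-/- pre-pro-B replicate 2, which was the highest library for 6 and the lowest for 5 of the 13 genes of histone mRNA transcription and 3' end processing. In that list, 0 of the 10 genes that entered passed the combined genotype test (median 0.10 relative to all genes), and for histone chaperones and assembly it was 0 of 12 (median 0.19). Asf1b, a chaperone of H3 and H4, led that list at 73.4 and 71.6, then 51.0 and 79.1, then 39.6, then 78.4 and 78.0 FPKM in the order of groups above. It was lowest in the WT pro-B library, as were 8 of the 14 genes of its list, while in Lf-/- pre-pro-B replicate 2 Asf1b and 7 others of the 14 were highest and 4 lowest.

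DNA replication genes, which act in the same phase of the cell cycle, had 0 of 28 passing the combined genotype test (median -0.12 relative to all genes), and mitosis genes 0 of 12 (median -0.05), of which 7 were highest and none lowest in Lf-/- pre-pro-B replicate 2. Pcna, the sliding clamp of DNA polymerase, was at 102 and 86.9 FPKM in WT against 89.9 and 204 in Lf-/- pre-pro-B cells, and 73.6 in WT against 132 and 117 in Lf-/- pro-B cells. Its level was highest in Lf-/- pre-pro-B replicate 2 and lowest in the WT pro-B library. Of the 28 genes of that list, 15 were highest and 6 lowest in Lf-/- pre-pro-B replicate 2, and none was highest in the WT pro-B library. Replication-independent histones, made throughout the cell cycle, had 0 of 9 passing (median -0.04 relative to all genes, turning to 0.05 with quantile normalization). H2afj, a replication-independent H2A, was at 445 and 910, then 1010 and 46.1, then 1373, then 15.4 and 541 FPKM in the order of groups above, and was called lower in Lf-/- pro-B by the 2-fold rule (-3.86). H2afx, an H2A variant that shares sequence windows with the H2a genes, was at 647 and 754, then 1061 and 264, then 1009, then 694 and 701 FPKM. Both were low in Lf-/- pre-pro-B replicate 2 and high in the WT pro-B library. H3f3a, a replication-independent H3, went the other way, at 235 and 278, then 345 and 520, then 196, then 389 and 291 FPKM, and H2afz, an H2A variant, reached 858 in Lf-/- pre-pro-B replicate 2 against 688 FPKM in the WT pro-B library.

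Because histone messages usually lack a poly(A) tail, their level depends on how a library selects RNA, which the sources do not state. Of 10 RNAs known to lack a tail, 6 and 6 were above 0 in WT against 7 and 4 in Lf-/- pre-pro-B libraries, and 6 in WT against 7 and 8 in Lf-/- pro-B libraries. They summed to 59.4 and 41.8 FPKM in WT against 45.6 and 30.3 in Lf-/- pre-pro-B cells, and 59.3 in WT against 74.4 and 52.2 in Lf-/- pro-B cells, led by Rn7sk. Their sum was lowest in Lf-/- pre-pro-B replicate 2, where 6 of the 10 were at 0 and 2 were highest. Rpph1 was also lowest there, at 2.79 FPKM, and Scarna6 was at 0 in every library. Of the 10 RNAs, 6 entered the combined genotype test and none passed (median -0.25 relative to all genes). Their part in the histone levels was not tested. The 8 H2a genes whose annotated transcript stops within 100 bases of the loop held 10014 of 10938 FPKM in WT pre-pro-B replicate 1 and 3107 of 3465 FPKM in Lf-/- pre-pro-B replicate 2. The low level in that library was shared by the H2a genes that run past the loop (87.0 FPKM against 206 in WT pre-pro-B replicate 1) and those with no annotated loop (271 against 718). In H3 the genes that stop at the loop were at 5.46 FPKM there against 31.6 to 50.0 in the other libraries. The H3 genes that run past it were also lowest, at 22.9 against 30.1 to 51.1, while those with no annotated loop, at 32.1, were within the range of the others. In H4 the genes that stop at the loop, at 39.9 FPKM, lay within the range of the others (34.3 to 83.7). The H4 genes that run past it were lowest, at 58.0 against 80.2 to 97.1 FPKM. The H2b genes that stop at the loop, at 45.4 FPKM, also lay within the range of the others (40.0 to 108).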

How the data were processed

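RNA of sorted mouse pre-pro-B and pro-B cells was sequenced on an Illumina NovaSeq. The deposited values are FPKM made by the authors, whose notes name TopHat, Cufflinks, HTSeq and DESeq, without versions, and build GRCm38. Library selection, strandedness and depth are not stated. The members and lists were chosen with earlier results of these data known. Of 52550 genes, 52403 were matched to the GENCODE M21 annotation for positions and transcripts, and promoters came from RefSeq. Genes reaching 1 FPKM in 2 or more libraries of a fit were tested with limma 3.58.1 (trend) in R 4.3.3 on log2(FPKM + 1), two-sided, Benjamini-Hochberg adjusted over all genes tested: 9720 in pre-pro-B (genotype) and 10793 over 7 libraries (genotype and stage). With 1 WT pro-B library, the pro-B comparison used a 2-fold rule without a test. Class sums are log2 of summed FPKM with no pseudocount, and since the members were chosen with results known no p-value is given for them. Stem-loops, windows of 100 bases and motifs were found with Python 3.11.15, pandas 2.3.3 and biopython 1.88. Genes named in the text were drawn from, per class, the 3 with the highest mean FPKM and the 2 with the largest difference in each comparison. For the other lists they came from the 2 with the highest mean and the 2 with the largest combined genotype difference. Other scalings, filters, pseudocounts, a replicate block and leaving out each library were tried. Leaving out the WT pro-B library was chosen after seeing the data.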

Additional observations from a re-analysis of the deposited data

How the results depend on the processing

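Replicate numbers in the labels are not stated to mark the same mouse, and with 2 pairs the libraries were not treated as paired. A replicate block gave 65 calls over all genes and 1 among the histone genes in pre-pro-B and 0 over all genes for stage. The deviations of replicate 1 correlated at 0.0393, 0.0532 and -0.0127 between pairs of groups over 10793 genes. The absence of a histone gene past the limma threshold held for the combined genotype and stage under every alternative tried. Without a library, an arm can be left with 1, which is then assumed to vary like the other groups. The pro-B comparison without its only WT library gives no value.

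In pro-B cells the calls over all genes were 822 with median-ratio scaling, 833 with quantile normalization, 943 with at least 1 FPKM in every library and 2853 with a pseudocount of 0.1. Among the histone genes they were 25, 18 and 3 under the same scalings and the stricter filter. Over all genes, the combined genotype had 7 calls with median-ratio scaling, 10 with quantile normalization, 0 with no filter, 63 with the stricter filter, 9 with a pseudocount of 0.1 and 3 from 4 group means. Stage had 0 calls with quantile normalization, 0 with no filter, 6 with the stricter filter and 0 with a pseudocount of 0.1. Leaving out each library in turn, calls over all genes ran from 0 to 3338 in pre-pro-B, from 0 to 123 for combined genotype and from 0 to 36 for stage, and calls among the histone genes from 0 to 29 in pre-pro-B.

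With median-ratio scaling the log2 difference in the class sum was -0.21 for H1 combined, -0.22 for H2b in pre-pro-B, -0.60 for H2b in pro-B, -0.37 for H2b combined, -0.21 for H2b between stages, -1.01 for H3 in pro-B, -0.64 for H4 in pro-B and -0.57 for H4 combined. Rescaled to the total without the neutrophil and azurophil granule markers it was -0.11 for H1 combined, -0.21 for H2b in pre-pro-B, -0.38 for H2b in pro-B, -0.28 for H2b combined, -0.10 for H2b between stages and -0.41 for H4 in pro-B. Without its most abundant member it was -0.0315 for H1 combined and -0.16 for H2b in pre-pro-B. Hist1h1c combined turned to -0.15 with median-ratio scaling.

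Leaving out each library, the pre-pro-B class sum difference ran from -0.29 to 0.78 for H1, -1.98 to 0.45 for H2a, -0.12 to 0.0215 for H2b, -1.04 to 0.0401 for H3 and -0.69 to -0.0234 for H4, and the combined one from -0.13 to 0.40 for H1 and -0.0498 to 0.0334 for H2b. H1 was also negative without Lf-/- pre-pro-B replicate 1, at -0.17 in pre-pro-B and -0.07 combined, and H2b combined was 0.0005 without Lf-/- pro-B replicate 2. In pre-pro-B the range was -1.12 to 0.19 for Hist1h1a, -0.42 to 1.02 for Hist1h1c (-0.24 without Lf-/- replicate 1), -5.01 to 0.32 for Hist2h2ac, -5.43 to 0.97 for Hist2h2aa2, -2.83 to 0.27 for Hist1h2bm, -2.91 to 0.11 for Hist1h3c, -3.20 to 0.48 for Hist1h3a and -3.39 to 0.089 for Hist1h4i. Combined it was -0.18 to 0.54 for Hist1h1c (-0.09 without Lf-/- pre-pro-B replicate 1) and -1.28 to 0.40 for Hist1h2bm, and between stages -0.31 to 1.53 for Hist1h3a and -0.15 to 1.36 for Hist1h3c. Apart from the 1 library left out, the cause was not tested.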

Other observations

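Markers of further cell types were read in the same libraries. The 9 erythroid markers, led by Hba-a1, took 6.99% and 1.91% of summed FPKM in WT against 3.54% and 15.2% in Lf-/- pre-pro-B cells, and 4.94% in WT against 10.3% and 5.17% in Lf-/- pro-B cells, with Epb42 at 0 in Lf-/- pre-pro-B replicate 2. The 5 azurophil granule markers, led by Elane and all above 0, summed to 20152 and 25434 FPKM in WT against 15119 and 7280 in Lf-/- pre-pro-B cells, and 26104 in WT against 4424 and 14763 in Lf-/- pro-B cells. They were lowest in Lf-/- pro-B replicate 1, whose H2a sum was in the middle of the range. The 5 monocyte markers, led by Ly6c2 and all above 0, summed to 970 and 1829, then 640 and 856, then 1022, then 578 and 764 FPKM in the same order. The 5 T and NK markers, whose sum was mostly Nkg7, summed to 980 and 1290, then 548 and 366, then 899, then 391 and 972 FPKM, with Klrb1c and Ncr1 at 0 in Lf-/- pre-pro-B replicate 2. Of these 5, 3 were highest in Lf-/- pro-B replicate 1, where the sum was low. The 2 plasmacytoid dendritic markers, led by Bst2 and all above 0, summed to 22.5 and 20.4, then 27.8 and 148, then 23.9, then 93.7 and 117 FPKM. Siglech, the other marker, was lowest in Lf-/- pre-pro-B replicate 1, at 1.98 FPKM, where the sum was above those of WT. In the combined genotype test in limma, 3 early B lineage markers and 1 neutrophil marker passed, among them Cd79a (log2 difference 2.79, adjusted p = 0.0273), Cd79b (2.82, adjusted p = 0.0136) and Ltf (-4.38, adjusted p = 0.00206).

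The histone values have limits. FPKM of genes with identical coding sequence depend on how reads were divided, and the unknown library selection affects RNA without a poly(A) tail. A gene annotated to end at the loop and a gene annotated to run on are measured over different parts of the message.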
